A study of Anopheles gambiae with 60 samples.

Results

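The probes described here are the Anopheles gambiae probe sets whose names place them on the scaffolds that had not been assigned to a chromosome arm when the array was designed (UNKN in the probe name), and that gave a signal in at least 1 group of samples. Detection in a group meant a log2 intensity of 5 or more, an intensity of 32, on 3 of the 4 arrays of that group, and a probe was kept as a member when it was detected in at least 1 of the 15 groups. 374 of 1938 unplaced-scaffold probes met this rule, out of 16884 Anopheles gambiae probes on the array. The comparison set was the 7880 of 14946 probes placed on X, 2R, 2L, 3R or 3L that met the same rule. Because the members were chosen by their intensities on these arrays, the shares detected in each group are given as descriptions, without tests.

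In the study, adult malaria mosquitoes were dissected and RNA from each tissue was hybridised to the Affymetrix Plasmodium/Anopheles genome array, with 4 biological replicates a group and 60 arrays in all. Whole body, salivary gland, Malpighian tubules, midgut, head and the thoracic and abdominal carcass were taken from females and from males, and ovary, testis and male accessory gland completed the 15 groups. According to the methods, the sexes were separated at pupation and were therefore unmated, females took a blood meal at 3 days of age, and a replicate was a pool of dissections made 24, 48 and 72 h after the meal, with 10 or more mosquitoes a time point. Males were age-matched siblings in the methods, whereas the sample labels give an age of 5 days and a blood meal for both sexes, so sex and feeding cannot be told apart in any comparison of females with males. Carcass was what remained after the other tissues were removed, head included some fat body, and a tissue pool holds several cell types, so fewer cells of a type and less RNA per cell cannot be told apart.

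An assembly is built by joining sequence reads into scaffolds and then anchoring the scaffolds to the chromosome arms. Scaffolds that remain unplaced in insects are typically short and rich in repeats, and they often come from heterochromatin, from the ends and centromeres of chromosomes, from the Y chromosome, from alternative haplotypes that assembled apart from their allele, or from other organisms in the sample. Genes on a Y chromosome are carried by males alone, and in many insects genes of testis and of the accessory gland, which makes the seminal fluid proteins, are the ones with the most male-limited expression. Neither the probe sequences nor a table of probes and genes was used here, so the probes are named as on the array and no role is given to them. The suffix of a name carries information of its own: by the array maker's convention _at probes match 1 transcript, _a_at probes match several transcripts of 1 gene, and _s_at and _x_at probes also match, wholly or in part, transcripts of other genes.

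Unplaced-scaffold probes were detected less often than placed ones. In all 19.3% of the unplaced-scaffold probes were detected in at least 1 group, against 52.7% of the placed probes. The share was 36.4% on X and between 51.4% and 56.1% on the other arms. This gap was widest for the probes that match a single transcript: 160 of 1479 unplaced _at probes were detected (10.8%), against 48.6% of the placed _at probes. For _a_at probes the shares were 67.1% (51 of 76) and 64.0%, and for _s_at and _x_at probes 42.6% (163 of 383) and 60.02%. By the design feature in the name, 272 of 1803 CDS probes were detected (15.1%), 14 of 16 UTR probes and 88 of 119 probes whose names carried neither word.

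The members differed in make-up from the placed probes that were detected. Probes that can match other genes were 43.6% of the members and 7.64% of the placed probes. The array itself already differed, with 383 such probes among the 1938 unplaced and 1003 among the 14946 placed, detected or not. The 374 members carried 350 different design numbers, and 47 of them shared a number with another member, as 22 pairs and 1 group of 3, so members were not all separate transcripts. Their brightness was similar to that of placed probes. The median over members of the highest group mean was 8.30 on the log2 scale (quartiles 6.59 and 10.38), and that of the placed probes was 8.15. Close to the limit, 42 members lay within 0.5 log2 above it and 24 unplaced-scaffold probes within 0.5 below. The values of the nearest members, Ag.UNKN.197.0_CDS_at in male Malpighian tubules and Ag.UNKN.439.0_CDS_at in male midgut, were 5.02 on the array that decided the call. The nearest probes left out were Ag.UNKN.137.0_CDS_a_at at 5.00 and Ag.UNKN.2106.0_CDS_s_at at 4.99, both in female Malpighian tubules.

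The arrays of a group agreed closely over the members, with a mean correlation of each array with its replicates between 0.945 and 0.984, and between 155 and 243 members were at or over the limit on an array. The lowest correlation belonged to ovary replicate 4, and it is given here because ovary results rest on it. Of the 212 members detected in ovary, 128 had their lowest of the 4 values in replicate 4, and their median there was 0.68 log2 below the mean of the other 3 arrays. Over the 4240 placed probes detected in ovary, the same difference was 0.23 above. The same array also read probes of testis: of the 993 placed probes detected in testis as their only dissected tissue, 190 were over the limit in ovary replicate 4 and 39, 8 and 17 in replicates 1 to 3, and of the 27 such members 3 in replicate 4 and 0 in the others. The source of that signal was not tested. The shares of members detected and highest in ovary and the counts against carcass are also given without this array. Only 2 of 23 listed tissue markers could be joined to a probe: lipophorin of the fat body averaged 13.08 in female carcass and 5.16 in female midgut, and muscle myosin heavy chain 8.25 in male carcass and 2.52 in male Malpighian tubules, both on the log2 scale. These are their highest and lowest groups. Lipophorin also averaged 12.24 in female head and 12.06 in female salivary gland. Myosin heavy chain averaged 6.91 in accessory gland and 5.98 in female carcass. Dissected tissues without a joined marker of their own were not checked against their labels in this way.

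The share of members detected was close to that of placed probes in midgut, Malpighian tubules and salivary gland, and differed most in head and testis. In testis, 60.4% of the members and 68.0% of the placed probes were detected. In head the order was the other way, with 58.3% of the members and 50.3% of the placed probes, and it held in both sexes, with 54.3% against 47.8% in females and 54.8% against 46.8% in males. At the lower limit taken from the Plasmodium probes of each array, near the bottom of the scale, the head share of members minus that of placed probes was -13.0 percentage points. Carcass (57.5% against 53.7%), ovary (56.7% against 53.8%) and accessory gland (48.7% against 45.4%) held slightly more of the members. Without ovary replicate 4 the ovary shares were 59.5% and 54.98%. Shares in midgut, Malpighian tubules and salivary gland differed by less than 1 percentage point between the sets with both sexes pooled. Of the members, 113 were detected in a dissected tissue and not in either whole-body group (30.2%), and the share was 29.6% among placed probes.

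**Figure D1:**
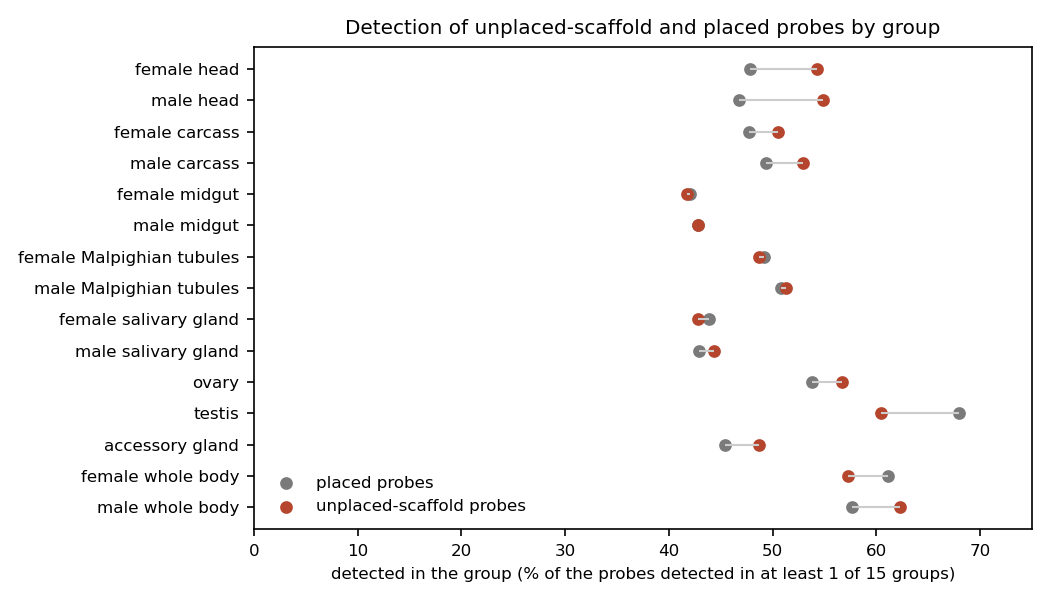
Share of the detected probes (x axis, %) that were detected in each of the 15 groups (y axis), for the 374 unplaced-scaffold probes in red and the 7880 placed probes in grey. The points lie close together in midgut, Malpighian tubules and salivary gland, the unplaced-scaffold probes are to the right in head and to the left in testis.

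Breadth of expression was alike in the 2 sets. Of the members 109 were detected in a single one of the 8 dissected tissues (29.1%, against 27.3% of placed probes) and 106 in all 8 (28.3% against 26.5%). Tau, an index that runs from 0 for even expression to 1 for a single tissue, with undetected tissues set to 0, was over 0.85 in 161 members (43.0%, against 41.9%) and under 0.15 in 29 (7.75%, against 9.92%). With tau on the values as measured no member was over 0.85, so that count comes from setting undetected tissues to 0. 93 members were detected in all 15 groups, or 24.9% against 23.2%.

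The shares of restricted members differed from those of placed probes most in the reproductive organs. Testis alone held 27 members (7.22%, against 12.6% of placed probes), ovary alone 24 (6.42% against 3.88%) and accessory gland alone 14 (3.74% against 1.24%). Accessory gland alone held 8 members when replicate 3 was left out of every group, and testis alone held 15 when all arrays were brought to 1 distribution. The somatic tissues were nearer to placed probes. Head alone held 12 members (3.21%, against 2.27%), carcass 12 (3.21% against 1.92%) and Malpighian tubules 9 (2.41% against 2.12%). Midgut alone held 8 (2.14% against 1.94%) and salivary gland 3 (0.80% against 1.36%). The highest mean intensity was in ovary for 131 members (35.0%, against 22.2% of placed probes) and in testis for 57 (15.2%, against 25.6%). The authors normalised each tissue separately, so a level in one tissue is not on the scale of another. With all 60 arrays brought to 1 distribution, the share highest in ovary was 11.0 percentage points above that of placed probes, against 12.8 in the deposited values. Without ovary replicate 4 it was 14.0 points above, and ovary alone held 25 members (6.67%, against 4.24%). At the limit taken from Plasmodium probes the order turned, to -1.69 points.

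**Figure D2:**
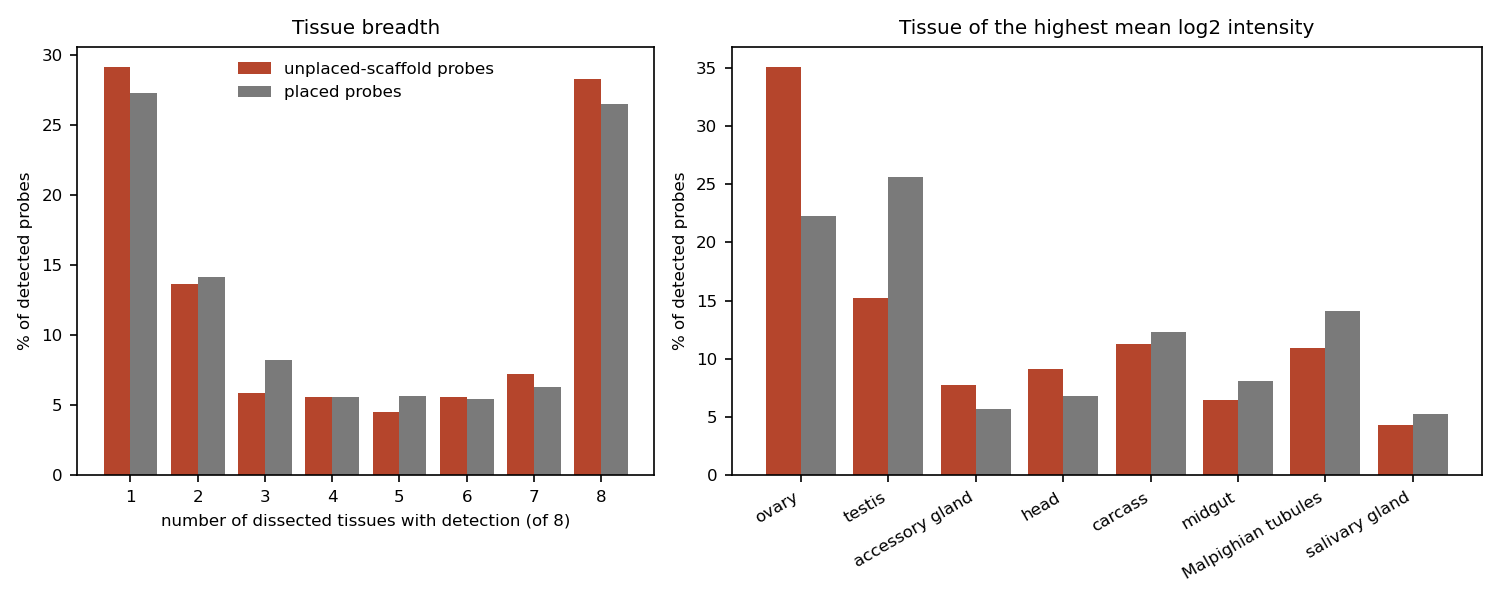
Left, share of detected probes (y axis, %) by the number of dissected tissues in which they were detected, and right, by the tissue of their highest mean log2 intensity, for the 374 unplaced-scaffold probes (red) and the 7880 placed probes (grey). The breadth bars are nearly equal, whereas 35.0% of the unplaced-scaffold probes and 22.2% of the placed probes are highest in ovary and 15.2% and 25.6% in testis.

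The class of the probe moved with these shares. Among members that match 1 gene (_at and _a_at), 85 of 211 were highest in ovary (40.3%, against 21.9% of placed probes of these classes) and 26 in testis (12.3% against 26.4%). For the _s_at and _x_at members the shares were near those of placed probes, with 46 of 163 in ovary (28.2% against 26.7%) and 31 in testis (19.0% against 15.3%). Without ovary replicate 4 the ovary shares were 40.6% against 21.1% and 28.8% against 25.5%. Detection in testis alone followed the same split, with 7 of 160 _at members (4.38%, against 14.6% of placed _at probes) and 18 of 163 _s_at and _x_at members (11.0%, against 6.48%).

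The members that were high everywhere were led by Ag.UNKN.1841.0_CDS_s_at. Its means ran from 12.18 ± 0.15 (SD, n = 4) in male Malpighian tubules to 14.68 ± 0.43 in ovary, so that no group fell near the limit. Ag.UNKN.2434.0_s_at was next, with means between 11.03 in male head and 13.22 in accessory gland. Ag.UNKN.2572.0_at, Ag.UNKN.2084.0_CDS_s_at and Ag.UNKN.1733.0_CDS_s_at followed. Apart from Ag.UNKN.2572.0_at, these names carry the suffix of probes that can match other genes.

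Across all 15 groups, 55 members were detected in male groups only (14.7%, against 17.0% of placed probes) and 33 in female groups only (8.82%, against 7.69%). Without replicate 3 of each group the female-only share of members was 0.55 percentage points below that of placed probes, so its order to the background was not stable. The 8 male groups include 2 reproductive tissues and the 7 female groups include 1, so the counts are not those of matched tissues. Of the 55 male-only members, 26 were detected in testis and nowhere else, 7 in accessory gland, 4 in male Malpighian tubules, 2 in male midgut, 1 in male carcass and 1 in male salivary gland. A further 11 were detected in 2 male groups, 2 in 3 and 1 in 6. Of the 1339 placed male-only probes, 891 were in testis alone, 73 in accessory gland, 32 in male Malpighian tubules and 30 in male midgut. Male carcass alone held 42 of them, male head 24, male salivary gland 8 and male whole body 5. Another 149 were in 2 male groups, 66 in 3, 15 in 4, 3 in 5 and 1 in 6. Of the 33 female-only members, 18 were detected in ovary alone, 3 in female Malpighian tubules, 3 in female midgut, 1 in carcass and 1 in salivary gland, and 7 in 2 female groups. Of the 606 placed female-only probes, 172 were in ovary alone, 48 in salivary gland, 46 in whole body and 38 in Malpighian tubules. Midgut alone held 32 of them, carcass 21 and head 15, and 182 were in 2 female groups.

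In the 12 groups of the 6 tissues taken from both sexes, 314 members were detected. Whole body is among the 6 and holds the reproductive organs, so these groups are not fully matched. Male-only members were then 27 (8.60%, against 5.69% of placed probes) and female-only members 31 (9.87%, against 14.2%). In the 10 groups of dissected somatic tissue, where the tissues are matched, 22 of 286 members were male-only (7.69%) and 16 female-only (5.59%). Of 5920 placed probes, 386 (6.52%) and 398 (6.72%) were. The placed female-only share was thus lower without whole body than with it. Detection in 1 sex alone was seldom repeated across tissues. With no detection in any group of the other sex, 7 members were male-only (1.87%) and 2 female-only (0.53%) in at least 2 of the 6 shared tissues. No member reached 5 of the 6 in either sex. Among placed probes these counts were 120 (1.52%) and 94 (1.19%), with 0 male-only and 8 female-only probes (0.10%) in 5 or more tissues. The male-only share of members was thus near that of placed probes.

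The widest male-only pattern was that of Ag.UNKN.2515.0_at, the member detected in 6 male groups. Its values were 5.85, 6.61, 7.07 and 7.56 in testis, 6.62, 5.98, 6.16 and 6.23 in male carcass and 5.75, 5.78, 6.47 and 6.64 in male whole body. Male head gave 5.60, 6.08, 5.32 and 6.40, male midgut 5.08, 5.15, 6.84 and 5.94, and accessory gland 5.19, 4.89, 5.19 and 6.52. In females it read 2.57, 2.75, 2.59 and 2.57 in ovary, 2.54, 2.80, 2.54 and 2.77 in midgut and 3.71, 3.78, 3.02 and 3.80 in whole body, near the bottom of the scale. The exceptions were close to the limit: female head averaged 5.06 ± 0.27 with 2 of 4 arrays over 5, female carcass had 1 array at 5.77, and male Malpighian tubules (5.33 ± 0.88) and male salivary gland (5.14 ± 0.23) were not called detected. The arrays of the sexes did not overlap in head, midgut, Malpighian tubules, salivary gland, carcass or whole body. Such separation was common, from 24.7% of all probes tested in head to 72.2% in whole body. By the test of sex differences described below, this probe was called higher in males in carcass, midgut and whole body. It was not called in head, nor tested in Malpighian tubules and salivary gland, where neither sex was detected. Among placed probes, 1 was detected in 6 male groups and in no female group, and none in more.

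The other male-only members in at least 2 shared tissues were fainter in the soma. Ag.UNKN.1546.0_CDS_at was bright in testis, at 10.67, 10.17, 9.88 and 9.92, and near the limit in male whole body (5.40 ± 0.40) and male carcass (5.22 ± 0.40). Ag.UNKN.583.0_CDS_s_at averaged 5.96 in male whole body, 5.82 in male carcass and 5.43 in male salivary gland. Ag.UNKN.402.0_CDS_s_at read 5.63, 7.20, 6.55 and 5.53 in male head and between 2.65 and 2.75 in female head. Ag.UNKN.1513.0_CDS_s_at, Ag.UNKN.743.0_CDS_at and Ag.UNKN.1177.0_CDS_s_at had no mean above 5.94 in any group, so their calls lay within 1 log2 of the limit. On the female side, Ag.UNKN.2560.0_at read 8.22, 8.29, 7.25 and 8.33 in carcass and 4.61, 4.20, 5.88 and 5.63 in male carcass, and Ag.UNKN.2108.0_CDS_s_at averaged 5.71 in Malpighian tubules and 5.81 in salivary gland.

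A separate group was made by 7 bright members, detected in accessory gland and male whole body and in no other group. Ag.UNKN.2503.0_at read 14.47, 14.57, 14.23 and 14.25 in accessory gland and 11.31, 11.31, 10.43 and 10.52 in male whole body. Ag.UNKN.2294.0_at read 14.29, 14.39, 14.25 and 14.27, with 11.19, 11.56, 11.12 and 11.06 in male whole body. Ag.UNKN.303.0_CDS_at read 14.05, 14.32, 13.92 and 14.06, with 11.61, 12.07, 11.32 and 11.12. These were among the highest intensities of any member, while in female whole body all 3 probes were at the bottom of the scale, as shown by the mean of 2.38 ± 0.02 for Ag.UNKN.303.0_CDS_at. The same pattern was shown by Ag.UNKN.223.1_s_at (13.53 in accessory gland and 11.82 in male whole body), Ag.UNKN.303.0_CDS_s_at (12.77 and 10.25), Ag.UNKN.331.0_CDS_at (12.21 and 7.82) and Ag.UNKN.332.0_CDS_at (11.99 and 10.01). Ag.UNKN.303.0_CDS_at and Ag.UNKN.303.0_CDS_s_at share a design number, and so may measure the same transcript.

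Single arrays of other tissues also read these bright accessory gland probes. Of the 6 members detected in accessory gland as their only dissected tissue and averaging at least 12 there, 4 were over the limit in replicate 3 of female Malpighian tubules, 4 in replicate 1 and 3 in replicate 2 of male salivary gland, 3 in replicate 3 of female salivary gland and 3 in replicate 2 of male Malpighian tubules. Of the 16 placed probes of the same kind, 2, 10, 5, 5 and 5 were over it on those arrays. In testis replicate 2 there were 2 of the 6 members and 6 of the 16 placed probes, in male carcass replicate 1 there were 1 and 6, and in male Malpighian tubules replicate 1 there were 1 and 2. Ag.UNKN.303.0_CDS_at itself read 6.52 in that female Malpighian tubule array and between 2.38 and 2.39 in the other 3, and 7.50 in that female salivary gland array against 2.40 to 2.56 in the others. By their definition, none of these 6 members was detected in any of those groups, where a call needed 3 arrays. The source of the signal was not tested.

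On the female side the members detected in ovary and female whole body and nowhere else were fainter. Ag.UNKN.180.1_a_at read 9.33, 10.03, 9.71 and 6.33 in ovary and averaged 5.42 ± 0.20 in female whole body. Its replicate 4 stood well below the others, on the array named above. Ag.UNKN.8.0_CDS_x_at (7.04 in ovary and 5.81 in female whole body), Ag.UNKN.11.0_CDS_s_at (6.86 and 5.78), Ag.UNKN.8.0_CDS_s_at (6.54 and 5.50) and Ag.UNKN.2176.0_CDS_s_at (6.28 and 6.09) completed them. Ag.UNKN.8.0_CDS_x_at, Ag.UNKN.11.0_CDS_s_at and Ag.UNKN.8.0_CDS_s_at all correlated best with the same placed probe, Ag.X.179.0_CDS_a_at. They may thus not be separate transcripts, which was not tested.

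**Figure D3:**
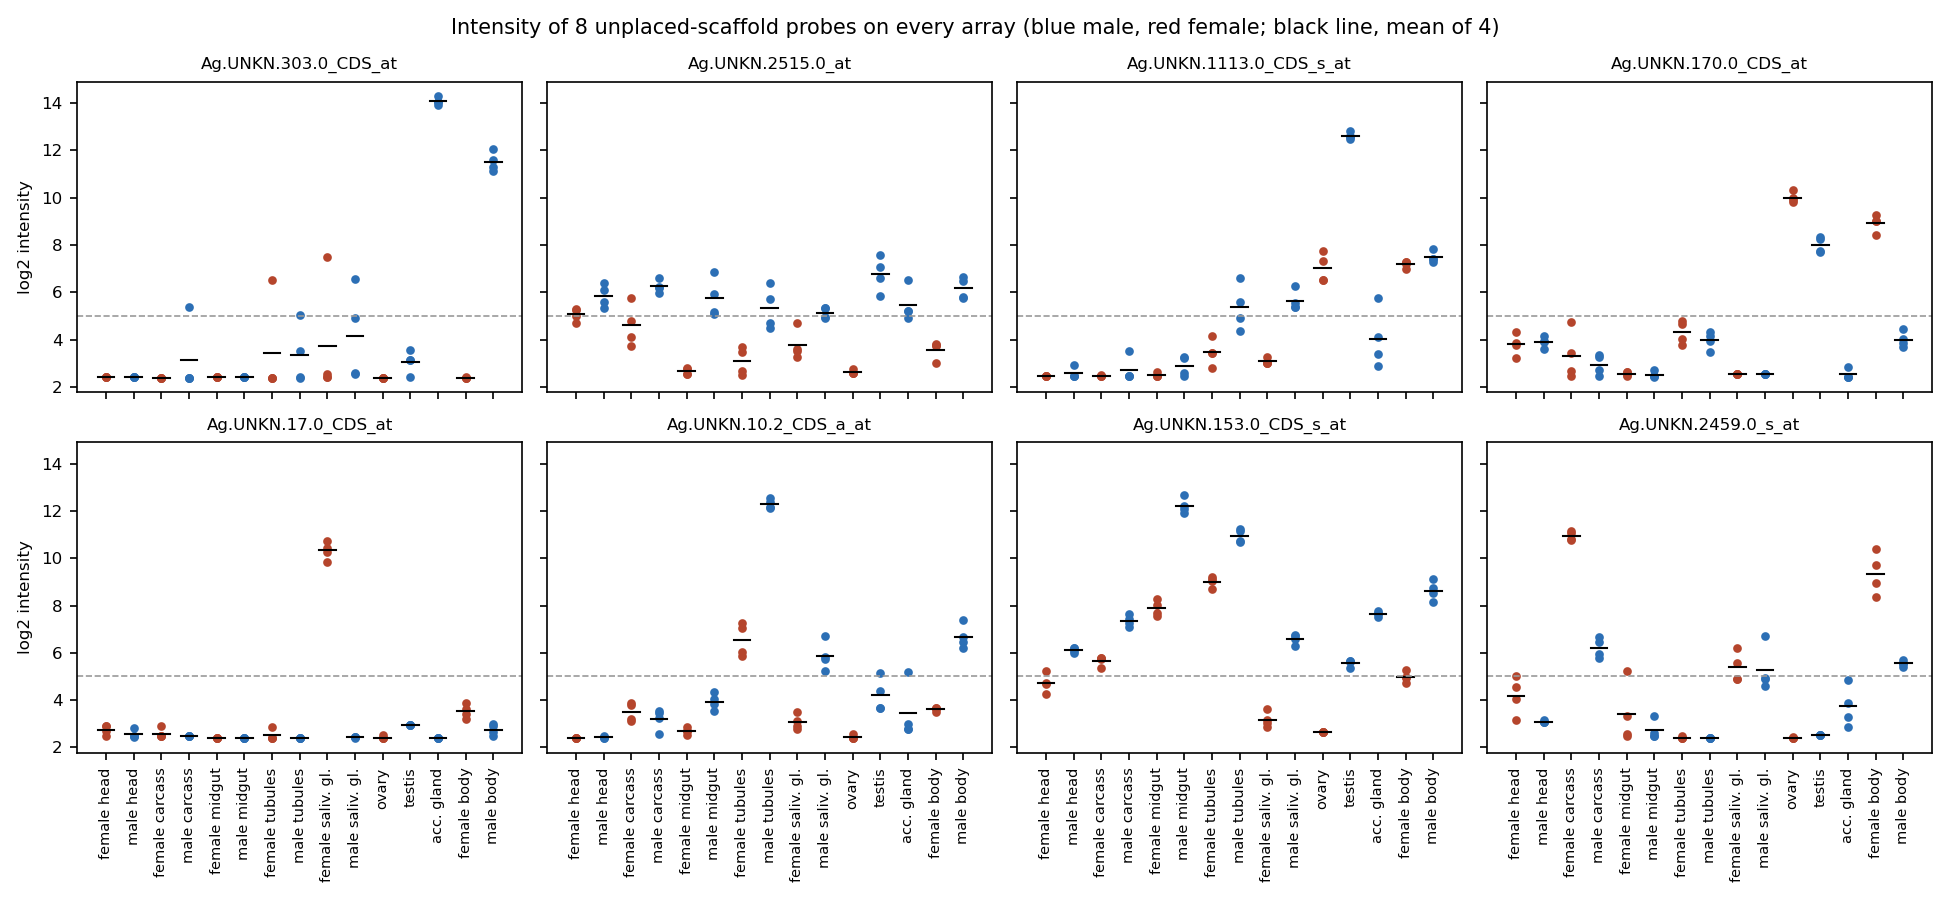
Log2 intensity (y axis) of 8 unplaced-scaffold probes on each of the 60 arrays, by group (x axis), with male groups in blue, female groups in red, the mean of 4 replicates as a black line and the detection limit of 5 as a dashed line. Ag.UNKN.303.0_CDS_at is high in accessory gland and male whole body alone, and Ag.UNKN.17.0_CDS_at in female salivary gland alone. Ag.UNKN.2515.0_at has a higher mean in males in each shared tissue, with a call in carcass, midgut and whole body.

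Members limited to a single dissected organ covered a wide range of levels. In testis Ag.UNKN.205.0_CDS_at read 11.05, 11.28, 10.83 and 11.08, Ag.UNKN.106.0_CDS_s_at 10.24, 10.21, 10.40 and 10.04, and Ag.UNKN.1598.0_CDS_s_at 10.31, 9.38, 9.17 and 8.92. None of the 3 was detected in male whole body. In ovary the brightest after Ag.UNKN.180.1_a_at were Ag.UNKN.885.0_CDS_at, at 7.51, 8.14, 8.32 and 6.70, and Ag.UNKN.164.0_CDS_a_at, at 7.46, 8.24, 8.19 and 5.88. All 3 ovary probes were lowest in replicate 4, as were 17 of the 24 members detected in ovary alone and 47.4% of the placed probes detected there alone.

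The 5 somatic organs held 44 members of this kind, of which 25 were not limited to 1 sex: 11 of 12 in head, 8 of 12 in carcass, 3 of 8 in midgut, 2 of 9 in Malpighian tubules and 1 of 3 in salivary gland. The same count was not made for placed probes, so it describes the members alone. Placed probes detected in male or female Malpighian tubules and in no other group were 32 and 38 of 167 limited to that organ. Members of that kind were 4 and 3 of 9. In head the counts were 24 and 15 of 179 placed probes and 0 and 0 of 12 members. In head Ag.UNKN.339.0_CDS_at averaged 8.16 ± 0.16 in females and 7.84 ± 0.18 in males, and Ag.UNKN.253.0_CDS_s_at 7.71 ± 0.46 and 7.07 ± 0.16. Ag.UNKN.2552.0_at averaged 6.80 ± 0.27 and 7.42 ± 0.18. The sexes were thus within 1 log2 of each other in these 3 head members. In midgut Ag.UNKN.795.0_CDS_at read 6.81, 5.20, 7.15 and 7.77 in females and 9.61, 8.41, 9.43 and 9.18 in males, whereas Ag.UNKN.1632.0_CDS_s_at (7.89 ± 0.42 and 8.97 ± 0.33) and Ag.UNKN.1744.0_CDS_s_at (7.02 ± 0.41 and 6.50 ± 0.49) were closer between the sexes. In Malpighian tubules Ag.UNKN.1330.1_CDS_at led, and Ag.UNKN.96.0_CDS_a_at (6.06 ± 0.79) and Ag.UNKN.626.0_CDS_at (5.67 ± 0.43) were detected in the female tubules only. In carcass Ag.UNKN.2459.0_s_at and Ag.UNKN.2560.0_at led, both higher in females.

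The salivary gland held the most contrasting pair. Ag.UNKN.1934.0_CDS_s_at was detected in both sexes, at 9.44, 9.21, 9.61 and 8.74 in females and 10.81, 10.82, 11.11 and 11.93 in males, and no other group averaged over 3.29. Ag.UNKN.17.0_CDS_at read 10.74, 10.44, 9.86 and 10.28 in the female gland and 2.43, 2.43, 2.43 and 2.40 in the male gland, and no other group averaged over 3.53. The first was high in the gland of both sexes and the second in that of females alone, the sex that feeds on blood.

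Sex differences were tested within each of the 6 shared tissues with limma, over the probes detected in at least 1 sex, and called at a 2-fold difference with an adjusted p under 0.05. The first counts below are of members detected in both sexes, since passing the limit in 1 sex alone selects for a difference. In head, of 190 such members 1 was higher in males and 8 in females, where 2.72% and 5.3% of all probes tested that way were called. In carcass the counts were 19 and 27 of 172 (background 15.3% and 11.9%), in midgut 12 and 22 of 143 (12.6% and 11.4%) and in salivary gland 10 and 17 of 143 (8.07% and 11.4%). The joined markers of other tissues moved with sex as well: lipophorin averaged 12.06 in female and 9.12 in male salivary gland and 8.67 in female and 5.89 in male Malpighian tubules, and it also averaged 9.85 in testis, while muscle myosin heavy chain averaged 5.98 in female and 8.25 in male carcass. The part of fat body or muscle in the sex differences was not tested. In Malpighian tubules 21 members were higher in males and 5 in females of 174 (12.1% and 2.87%), where the background was 8.4% and 6.56%. The salivary gland shares of members, 6.99% and 11.9%, were near the background, and in head all probes leaned to females as well. In whole body 44 were higher in males and 48 in females of 186 (24.4% and 22.9%).

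Over all members tested, in either sex or both, the counts higher in males and in females were 4 and 9 of 218 in head (background 3.54% and 7.06%, with 2 to 8 higher in males when each replicate was left out), 34 and 37 of 215 in carcass (18% and 15.1%), 23 and 30 of 173 in midgut (16.3% and 14.3%), 28 and 6 of 200 in Malpighian tubules (10.6% and 7.8%), 25 and 30 of 183 in salivary gland (13.1% and 16.2%) and 84 and 71 of 261 in whole body (28.5% and 30.6%). Malpighian tubules were the tissue whose members stood farthest from the background in direction. There 82.4% of the members called were higher in males, against 57.5% of all probes called, and the median difference was 0.31 log2 for members and 0.09 for all probes. With all arrays brought to 1 distribution these were 79.3% of members and 51.1% of all probes.

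Among the members higher in male Malpighian tubules was Ag.UNKN.10.2_CDS_a_at. Its values were 12.55, 12.12, 12.16 and 12.37 in males and 7.26, 5.85, 7.06 and 6.03 in females, a 53.8-fold difference (log2 5.75 ± 0.32 SE, limma adjusted p = 1.9e-06). The 2 sexes were far apart, and outside the tubules it was detected in male salivary gland and male whole body, not in the female ones. Ag.UNKN.7.0_CDS_at averaged 8.82 ± 0.47 and 6.21 ± 0.44, a 6.10-fold difference. In the opposite direction Ag.UNKN.703.0_CDS_s_at was 10.8-fold higher in females, with 12.26, 11.82, 11.97 and 11.57 in females and 7.07, 7.85, 11.07 and 7.91 in males, where replicate 3 stood apart. Without replicate 3 the difference was 19.4-fold. Ag.UNKN.1448.0_CDS_s_at was 4.27-fold and Ag.UNKN.1330.1_CDS_at 3.65-fold higher in females, or 5.49-fold without replicate 4 for the second. The call of Ag.UNKN.68.0_CDS_at (7.61 ± 0.56 in males and 5.52 ± 1.04 in females, adjusted p = 0.0087 from limma) was lost without replicate 4 (adjusted p = 0.057).

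In midgut Ag.UNKN.153.0_CDS_s_at was higher in males, with 12.07, 11.92, 12.21 and 12.67 in males and 7.67, 7.55, 8.04 and 8.27 in females, a 20.2-fold difference (limma adjusted p = 3.7e-07). This probe was higher in males in each of the 6 shared tissues. Ag.UNKN.18.0_CDS_at was 17.0-fold higher in males (11.47 ± 0.38 against 7.39 ± 0.20), and Ag.UNKN.18.1_s_at read 8.98 ± 0.71 in males and was not detected in females. The second probe entered through male midgut alone, so its difference is a description. The brightest member of any group, Ag.UNKN.703.0_CDS_s_at, read 15.22, 15.18, 15.07 and 14.87 in female midgut and 12.08, 11.63, 12.63 and 12.01 in males, a 7.98-fold difference. Ag.UNKN.2319.0_s_at was 6.89-fold higher in females.

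Salivary gland had large differences in both directions. Ag.UNKN.17.0_CDS_at, with the values given above, was at least 40.2-fold higher in females when the male gland is set at the detection limit. It entered this comparison through the female gland alone, so the fold is a description. Ag.UNKN.177.1_a_at averaged 11.13 ± 0.14 in females and 8.41 ± 0.56 in males, and Ag.UNKN.177.0_CDS_s_at read 7.57, 7.66, 7.50 and 6.66 in females and was not detected in males (3.52 ± 0.50). On the male side Ag.UNKN.73.0_CDS_s_at was 21.8-fold higher (10.66 ± 0.49 against 6.21 ± 1.35), and 33.7-fold without replicate 1 or 13.6-fold without replicate 2. Ag.UNKN.295.0_CDS_s_at and Ag.UNKN.252.1_CDS_at were at least 5.49-fold and 3.26-fold higher in males than a female gland at the limit. They entered through the male gland alone, and Ag.UNKN.177.0_CDS_s_at through the female gland alone, so their differences are a description.

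In carcass Ag.UNKN.2459.0_s_at read 11.15, 11.05, 10.81 and 10.78 in female carcass and 6.69, 5.78, 5.94 and 6.48 in male carcass, a 26.5-fold difference (limma adjusted p = 1.3e-07). Ag.UNKN.95.0_CDS_at averaged 7.60 ± 0.34 in female carcass and was not detected in males. Ag.UNKN.73.0_CDS_s_at was 5.22-fold higher in male carcass, and Ag.UNKN.1699.0_CDS_at (7.34 ± 0.57) was detected there and not in females. Ag.UNKN.95.0_CDS_at and Ag.UNKN.1699.0_CDS_at each entered through a single sex, so their differences are a description. In head Ag.UNKN.48.0_CDS_s_at read 12.79, 12.82, 12.73 and 12.51 in females and 10.57, 11.28, 10.90 and 10.36 in males, a 3.83-fold difference, and Ag.UNKN.47.0_CDS_s_at (4.18-fold) and Ag.UNKN.49.0_CDS_at (4.03-fold) went the same way. The male head excess of Ag.UNKN.402.0_CDS_s_at was at least 2.34-fold against a female head at the limit. This probe entered through male head alone, so the fold is a description. Ag.UNKN.1759.0_CDS_s_at was 2.23-fold higher in male head with an adjusted p of 0.036 from limma, which rose to 0.16, 0.11 and 0.057 without replicate 1, 3 or 4.

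The members named for whole body were highest in a reproductive organ. Ag.UNKN.223.1_s_at, Ag.UNKN.303.0_CDS_at and Ag.UNKN.2294.0_at, detected in accessory gland, were at least 113-fold, 92.3-fold and 75.3-fold higher in males than a female value at the limit. They entered this comparison through male whole body alone, so the folds are a description. In the other direction Ag.UNKN.170.0_CDS_at read between 8.43 and 9.25 in females and 4.00 ± 0.33 in males, at least 15.2-fold higher, and its highest mean was in ovary. Its entry was through female whole body alone, so that fold is a description too. Ag.UNKN.89.0_CDS_a_at (22.6-fold) and Ag.UNKN.1804.0_CDS_at (20.7-fold) were also higher in females. Ag.UNKN.89.0_CDS_a_at was highest in ovary (11.18) and Ag.UNKN.1804.0_CDS_at in testis (10.94), although it was higher in female than in male whole body.

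Of 314 members tested in any of the 6 shared tissues, 227 were called in at least 1 (72.3%, background 71.7%), of which 104 were higher in males only (33.1%, background 28.4%), 100 in females only (31.8%, background 35.7%) and 23 in males in one tissue and females in another (7.32%, background 7.51%). In at least 3 tissues 15 members were higher in males and 14 in females (background 5.96% and 4.49%), so these shares were near those of all probes tested. Ag.UNKN.153.0_CDS_s_at was higher in males in all 6 tissues and Ag.UNKN.73.0_CDS_s_at in 5. Ag.UNKN.47.0_CDS_s_at and Ag.UNKN.95.0_CDS_at were higher in females in 5. The same probe could therefore change direction between tissues. Ag.UNKN.47.0_CDS_s_at was higher in male than in female Malpighian tubules, and Ag.UNKN.295.0_CDS_s_at was higher in males in 3 tissues and in females in midgut. A test of whether the sex difference varied between the 5 dissected somatic tissues called 193 of 286 members (67.5%, background 71.1%), led by Ag.UNKN.17.0_CDS_at, Ag.UNKN.10.2_CDS_a_at and Ag.UNKN.177.0_CDS_s_at. Members and background probes alike entered that test by detection in any single group of these tissues, which selects for a difference. Ag.UNKN.17.0_CDS_at entered it through female salivary gland alone, so its rank is a description.

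**Figure D4:**
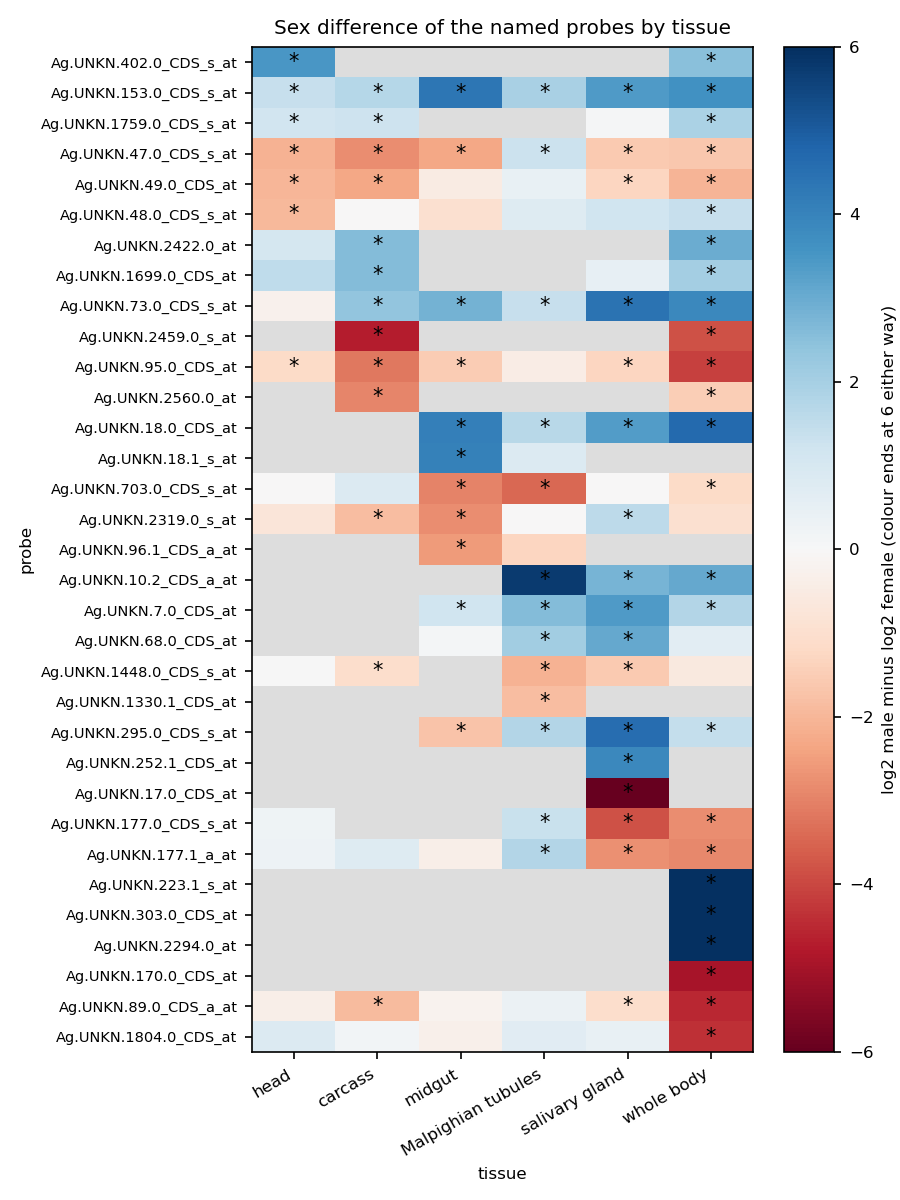
Difference of the male and female mean log2 intensities (colour, blue higher in males, red higher in females, ending at 6) of the members named for a sex comparison (rows) in the 6 shared tissues (columns), with a star for each call and grey where the probe was detected in neither sex. Ag.UNKN.153.0_CDS_s_at is starred blue in all 6 columns, and Ag.UNKN.47.0_CDS_s_at is red in 5 and blue in Malpighian tubules.

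The 3 reproductive organs were set against carcass, ovary against that of females and the others against that of males. These comparisons cross tissues that were normalised apart, so the counts of higher and lower probes move with the scale, and members are read against all probes tested. Of 139 members detected in both ovary and female carcass, 83 were higher in ovary and 18 in carcass, where 42.7% and 15.8% of all such probes were called. Of 147 detected in both testis and male carcass, 37 were higher in testis and 42 in carcass (29.9% and 28.3%), and of 150 detected in both accessory gland and male carcass, 25 and 31 (19.1% and 26.8%). Without ovary replicate 4, 84 of 146 were higher in ovary (57.5%, against 40.4% of placed probes). In the set where undetected probes were tested too, which then holds all unplaced-scaffold probes, the share higher in ovary minus that of placed probes was -12.2 percentage points, the opposite order.

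Over all members tested, 152 of 262 were higher in ovary and 62 in female carcass (background 48.6% and 25.1%), 103 of 277 in testis and 88 in male carcass (49.5% and 26.4%), and 43 of 230 in accessory gland and 73 in male carcass (23.8% and 36%). The median difference of members was 1.56 log2 in ovary where that of all probes was 0.94, and 0.26 in testis where that of all probes was 0.96. With all arrays brought to 1 distribution the counts became 119 and 73 for ovary, 65 and 121 for testis and 63 and 67 for accessory gland, so that the share of called members that were higher in the organ went from 71.0% to 62.0%, from 53.9% to 34.9% and from 37.1% to 48.5%. For all probes called, these shares went from 66.0% to 53.1%, from 65.2% to 47.0% and from 39.9% to 51.5%. Relative to the median of all probes the members were then 0.66 higher in ovary (0.62 in the deposited values) and 0.80 lower in testis (0.70), so these differences from the background did not turn with the scale. Without ovary replicate 4, 154 members were higher in ovary and 58 in female carcass, with a median of 1.56 where that of all probes was 0.87.

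The distance to placed probes in ovary was larger for the probes that match 1 gene. Of 149 _at and _a_at members tested, 100 were higher in ovary (67.1%, against 48.7% of placed probes of these classes), and of 113 _s_at and _x_at members 52 were (46.0%, against 41.6%). Without ovary replicate 4 these shares were 66.0% against 48.1% and 46.9% against 41.3%. In testis 59 of 145 _at and _a_at members were higher than in male carcass (40.7%, against 51.0%), and 44 of 132 of the others (33.3%, against 38.0%).

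**Figure D5:**
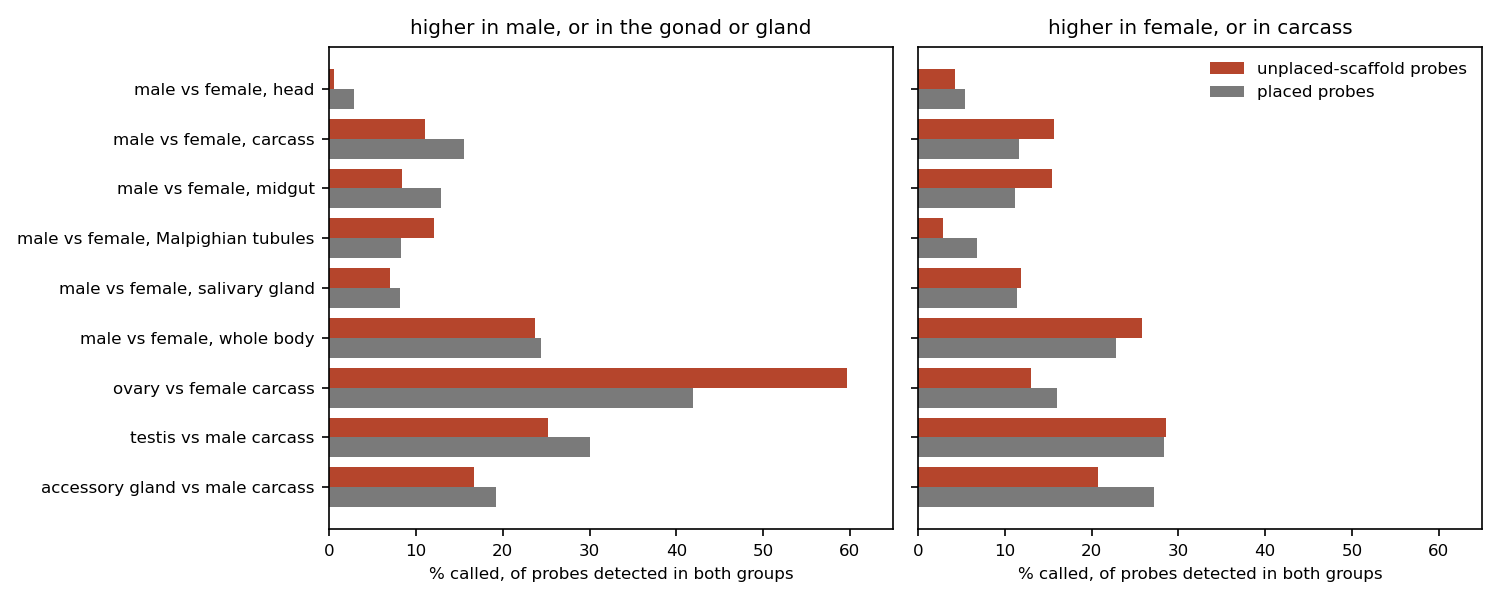
Share of the probes detected in both groups (x axis, %) that were called in each of 9 comparisons (y axis), for unplaced-scaffold probes (red) and placed probes (grey). The left panel counts probes higher in males, or in the organ named first, and the right panel those higher in females, or in carcass. The longest red bar is that of ovary against female carcass, 83 of 139 members.

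Ag.UNKN.170.0_CDS_at was among the members higher in ovary, with 9.98, 9.89, 10.34 and 9.80 in ovary and 2.45, 2.66, 4.72 and 3.42 in female carcass, at least 32.0-fold. It entered this comparison through ovary alone, so the fold is a description. It was detected in testis too. Ag.UNKN.224.0_CDS_at read 12.45, 12.59, 12.27 and 10.88 in ovary and 6.57 ± 0.32 in carcass, a 44.7-fold difference. In the opposite direction Ag.UNKN.86.1_s_at averaged 12.18 ± 0.27 and Ag.UNKN.46.0_UTR_a_at 11.71 ± 0.39 in female carcass, and neither was detected in ovary, where all 4 arrays read 2.37 and 2.80.

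Several members were bright in testis and not detected in male carcass. They entered this comparison through testis alone, so their folds are a description. Ag.UNKN.1113.0_CDS_s_at read 12.61, 12.57, 12.81 and 12.48 in testis and 3.50, 2.46, 2.46 and 2.46 in male carcass, at least 196-fold. This probe was also detected in ovary, in male salivary gland and in both whole-body groups. Ag.UNKN.68.0_CDS_at averaged 12.69 ± 0.37 and 3.55 ± 0.56, at least 207-fold, and Ag.UNKN.1499.0_CDS_s_at 11.18 ± 0.09 and 2.60 ± 0.42, at least 72.3-fold. Ag.UNKN.86.1_s_at, Ag.UNKN.46.0_UTR_a_at and Ag.UNKN.48.3_UTR_s_at were lower in testis than in carcass, by 130-fold for the first of them.

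Against male carcass, the accessory gland members Ag.UNKN.2503.0_at, Ag.UNKN.2294.0_at and Ag.UNKN.303.0_CDS_at were at least 667-fold, 630-fold and 544-fold higher. They entered this comparison through accessory gland alone, so the folds are a description. Replicate 1 of male carcass read 4.97, 4.98 and 5.38 for these 3 probes and the other 3 arrays between 2.39 and 2.91. Ag.UNKN.2310.0_at went the other way, with 9.46, 11.09, 9.65 and 9.55 in male carcass and 3.06 on every accessory gland array.

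For 98 members (26.2%) the most similar placed probe correlated at 0.95 or more over the 60 arrays, as it did for 29.9% of placed probes. With a mean difference of at most 0.5 log2 as well, 55 members (14.7%) and 18.1% of placed probes had such a partner. Arrays of a tissue share their normalisation, so these correlations are a description. The closest pair was Ag.UNKN.215.0_CDS_s_at with Ag.2L.1975.0_CDS_at, whose values differed on average by 0.15 log2, and the most similar placed probe of the accessory gland member Ag.UNKN.303.0_CDS_at was on 3R.

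Gene identifiers could be attached to 16 members, through tissue shares of a gene that 1 probe alone matched. Their numbers lay among those of placed genes in part: Ag.UNKN.148.0_CDS_at (AGAP001046), Ag.UNKN.1041.0_CDS_at (AGAP001050) and Ag.UNKN.88.0_CDS_at (AGAP001051) fell between identifiers joined to X probes, and Ag.UNKN.50.2_CDS_a_at (AGAP001082), Ag.UNKN.137.0_UTR_a_at (AGAP001090) and Ag.UNKN.125.0_CDS_at (AGAP001091) between the last one on X and the first on 2R. Of these 6, Ag.UNKN.88.0_CDS_at and Ag.UNKN.50.2_CDS_a_at were detected in all 15 groups. None of the 6 was limited to 1 sex, and 4 had their highest mean in ovary, from 7.69 ± 0.70 for Ag.UNKN.1041.0_CDS_at to 10.47 ± 1.17 for Ag.UNKN.88.0_CDS_at. The joined members away from that stretch included Ag.UNKN.1448.0_CDS_s_at (AGAP004861), which was highest in female salivary gland at 10.94 ± 0.25, and Ag.UNKN.60.0_CDS_s_at (AGAP012189), which was highest in female Malpighian tubules.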

How the data were processed

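Each of the 60 arrays held 22761 probe sets, 16884 of them for Anopheles gambiae. The authors deposited linear GCRMA intensity values, normalised within each tissue with both sexes together, so tissues were not on a common scale and the depth of arrays, unlike that of counts, is set by their number. The lowest value on an array was between 5.09 and 5.28. No array was identical to another, and the replicates were biological according to the methods.

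From the deposited intensities log2 was taken. Detection at log2 5 on 3 of 4 arrays stood in for the mismatch calls of the study, which were not analysed here. limma 3.58.1 (R 4.3.3, lmFit and eBayes) was fitted per comparison, without a block, to all Anopheles gambiae probes detected in either group, with Benjamini-Hochberg adjustment over all of them. Calls needed a log2 difference of 1 and an adjusted p under 0.05. On 4181 simulated probes with the means and spread of female and male head, 93% of changes of 1.5 log2 and 100% of changes of 3 log2 were recovered, with 4 false calls among 197. Folds against an undetected group used that group's mean or the limit, whichever was higher. A probe undetected in 1 group entered its comparison through the other alone, so such folds are a description. Variation of the sex difference between tissues was an F test in limma over the 40 arrays of the dissected somatic tissues. Tau was computed over the 8 dissected tissues on log2 means, with undetected tissues set to 0.

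Same-numbered arrays deviated together (every pair over 0.1) in 1 of the 9 comparisons, males against females in Malpighian tubules, where the block changed no count by over 1.5 times. The pair correlations ran from -0.24 to 0.43 over all comparisons.

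Gene identifiers were attached through the tissue shares listed in the study's supplement, where those of 1 probe alone matched within 0.0006 over at least 3 tissues. This joined 1174 of 1352 genes. Only identifiers were taken from that list.

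Named members followed a rule: the members limited to 1 sex in at least 2 shared tissues, up to 3 brightest members per single tissue, the 3 largest calls each way per comparison with arrays that did not overlap, the 5 with the highest lowest mean in all groups, the 3 largest F values and the 2 on each side of the limit. The members limited to a reproductive organ and the whole body, and those with the most similar placed probes or a joined identifier, were chosen after their values were seen. Members and lists were chosen with earlier results of these data known.

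Alternatives were limits of log2 4 and 6, detection on all 4 arrays, quantile normalisation of the 60 arrays, no or another filter, moderated variances with trend and robust fitting, a replicate block, a 4-fold limit, leaving out each replicate, and leaving out _s_at and _x_at probes. A limit at the 95th percentile of the Plasmodium probes and the results without ovary replicate 4 were added after seeing the data.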

Additional observations from a re-analysis of the deposited data

Results flagged for a closer look

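In groups of 4 arrays, 132 sets of values were examined for 1 array far from its group, and 7 stood apart by Dixon's test at the 95% level, where chance gives about 1 in 20. Accessory gland replicate 1 had a mean correlation of 0.970 with its replicates over the members. Among named members, Ag.UNKN.2560.0_at read 7.25 in female carcass replicate 3, Ag.UNKN.339.0_CDS_at 8.39 in female head replicate 3, Ag.UNKN.177.0_CDS_s_at 6.66 in female salivary gland replicate 4 and Ag.UNKN.2310.0_at 11.09 in male carcass replicate 2. Ag.UNKN.7.0_CDS_at was set apart on both sides of its comparison, at 6.86 in female Malpighian tubules replicate 1 and 9.52 in male Malpighian tubules replicate 4.

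Sex differences that varied between the 5 dissected somatic tissues were found in 193 of 286 members by limma's F test (67.5%, below the 71.1% of all probes tested). The largest F was 612 for Ag.UNKN.17.0_CDS_at, which was high in female salivary gland alone, followed by 85.1 for Ag.UNKN.10.2_CDS_a_at and 74.6 for Ag.UNKN.177.0_CDS_s_at. Ag.UNKN.17.0_CDS_at entered the test through female salivary gland alone, so its F is a description. No explanation of these patterns was tested.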

How the results depend on the processing

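The replicate block moved no count by over 1.5 times: with it 29 and 7 members differed in Malpighian tubules (male, then female, here and below) and 204 varied between tissues. Without _s_at and _x_at probes, there were 211 members, of which 116 were detected in testis, 9 in testis only, 55 in all 8 tissues, 61 in 1 tissue, 27 in male and 21 in female groups only, 16 and 19 over the 12 groups, and 94 had a tau over 0.85. The counts by sex were then 0 and 5 in head, 18 and 15 in carcass, 12 and 11 in midgut, 14 and 2 in Malpighian tubules, 10 higher in male salivary gland, and 46 and 47 in whole body. Ovary and its carcass had 100 and 33, testis 59 and 48, accessory gland 22 and 42, and 96 members varied between tissues. Members minus placed was -38.6 points for detection, -13.0 for testis, 18.4 for highest in ovary and 18.3 for higher in ovary than carcass. These are smaller sets by construction.

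With a 4-fold limit the counts were 1 and 2 in head, 4 and 6 in carcass, 10 and 8 in midgut, 4 and 2 in Malpighian tubules, 12 and 7 in salivary gland and 39 and 35 in whole body, with 38 higher in female carcass than ovary, 48 in male carcass than testis, and 23 and 43 for accessory gland and its carcass. With all probes tested, undetected ones included, 2 were higher in male head, 15 and 2 in Malpighian tubules, 16 in male salivary gland and 95 in female carcass than ovary, and members minus placed was -12.2 points for ovary (a reversal) and -19.7 for testis. The mean filter gave 2 in male head and 127 that varied between tissues. Quantile normalisation gave 15 in testis only and 65 higher in testis than carcass.

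The share of unplaced-scaffold probes detected was -37.5 points from that of placed ones at a limit of log2 4 and -28.4 at 6. With tau computed on all values as measured no member was over 0.85. At the limit taken from Plasmodium probes, log2 2.47 to 2.74 and near the bottom of the scale, 1097 probes were members. Of these 608 were detected in testis, 58 in testis only, 33 in accessory gland only, 259 in all 8 tissues, 307 in 1, 136 in male and 58 in female groups only, 55 and 47 over the 12 groups, and 454 had a tau over 0.85. Members minus placed was then -27.9 for detection and -22.2 for testis, and it reversed to 0.15 for testis only, -1.69 for highest in ovary, 4.60 for male groups only, 2.03 for female groups only over the 12 groups and -13.0 for head. The cause was not tested.

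Leaving out each replicate in turn gave 8 to 13 members in accessory gland only, 2 to 8 higher in male head, and -0.55 to 0.77 points for female groups only (1.04 without ovary replicate 4). Of the alternatives for named members, 642 of 655 kept their direction and call and 13 kept the direction alone. The differences from placed probes in testis, testis only and highest in ovary kept their direction at limits of log2 4 and 6, and not all of them at the limit near the bottom of the scale.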
